A study of Rattus norvegicus with 372 samples.

Results

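The metallothioneins Mt1, Mt2A and Mt3, the zinc exporter Slc30a1 and the zinc-sensing transcription factor Mtf1 were followed through 28 chemical treatments of primary rat hepatocytes. The members were chosen by gene symbol, as 6 names of which Mt1a is a synonym of Mt1 and is the name used by the ST assay. The WT (whole transcriptome) table held 5 of them among 20946 genes, read by 6 probes because Mt1 has a pair of probes, and the ST (surrogate S1500+) table held Mt1a and Mt2A among 2604 genes. Where the mean over the wells had to reach 10 counts, 4 members (Mt1, Mt2A, Slc30a1 and Mtf1) were tested among 10191 genes of WT and both ST members among 1760 genes, while Mt3 stayed under the filter and is described by its reads.

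Hepatocytes of male Wistar rats were kept in collagen sandwich and exposed for 24 h in medium with 0.5% DMSO, and every well, controls included, received dexamethasone, insulin and EGF in its medium. The treatments were acetaminophen (400 and 10000 µM), caffeine (400 and 10000 µM), chloramphenicol (18 and 450 µM), diclofenac (16 and 400 µM), doxorubicin (0.08 and 2 µM), indomethacin (12 and 300 µM), isoniazid (400 and 10000 µM), ketoconazole (0.6 and 15 µM), naproxen (80 and 2000 µM), ranitidine (160 and 4000 µM), simvastatin (2.4 and 60 µM), sulfasalazine (4 and 100 µM), valproic acid (400 and 10000 µM) and WY14643 (8 and 200 µM). Batch 1 used cells of 1 rat and batch 2 cells of another, each with 3 wells per treatment, so the wells are technical replicates and 2 rats are the only biological ones. Vehicle (0.5% DMSO) had 3 wells in batch 1 and 6 in batch 2, as had culture medium alone, and the same lysates were run by both assays. Depth was 2289425 to 8975207 reads per well by WT and 558190 to 2210264 by ST.

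Metallothioneins are small cysteine-rich proteins that bind zinc, copper and cadmium, and in liver they buffer free zinc and take part in the defence against toxic metals and oxidants. When zinc in the cell rises, Mtf1 binds metal response elements (MREs) in promoters and raises transcription of metallothionein genes and of Slc30a1, whose protein carries zinc out of the cell. Glucocorticoids and inflammatory signals are further known inducers of Mt1 and Mt2A in liver, and Mt3 is known mainly from brain.

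The 250 bases before the transcript start of each member are given on the strand of the gene, from the RefSeq promoter table of the rat assembly GRCr8, because the members that moved together in these data can be compared there for the motif that Mtf1 is known to bind. Capitals mark matches to an MRE core, searched as TGCACNC or TGCGCNC on both strands, and the last bases of the Mtf1 window lie inside that gene as the RefSeq gene table draws it.
Mt1 (chr19:10832976-10833225, minus strand): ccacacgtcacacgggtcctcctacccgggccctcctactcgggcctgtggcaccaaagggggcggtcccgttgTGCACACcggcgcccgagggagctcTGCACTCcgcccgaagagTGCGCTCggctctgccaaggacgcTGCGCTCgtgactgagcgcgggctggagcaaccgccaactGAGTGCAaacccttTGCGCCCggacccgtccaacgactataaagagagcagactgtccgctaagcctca
Mt2A (chr19:10838709-10838958, minus strand): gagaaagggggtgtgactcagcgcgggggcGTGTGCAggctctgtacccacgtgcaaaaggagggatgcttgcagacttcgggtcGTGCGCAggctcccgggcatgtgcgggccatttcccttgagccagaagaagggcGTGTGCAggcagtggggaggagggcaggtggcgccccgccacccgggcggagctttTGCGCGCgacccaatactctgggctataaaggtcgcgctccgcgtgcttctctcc
Mt3 (chr19:10856081-10856330, minus strand): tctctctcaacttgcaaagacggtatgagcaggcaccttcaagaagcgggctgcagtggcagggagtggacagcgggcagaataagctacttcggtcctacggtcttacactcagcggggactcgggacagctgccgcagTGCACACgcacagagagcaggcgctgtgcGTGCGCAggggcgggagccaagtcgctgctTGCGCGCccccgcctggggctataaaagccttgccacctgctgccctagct
Slc30a1 (chr13:106021769-106022018, plus strand): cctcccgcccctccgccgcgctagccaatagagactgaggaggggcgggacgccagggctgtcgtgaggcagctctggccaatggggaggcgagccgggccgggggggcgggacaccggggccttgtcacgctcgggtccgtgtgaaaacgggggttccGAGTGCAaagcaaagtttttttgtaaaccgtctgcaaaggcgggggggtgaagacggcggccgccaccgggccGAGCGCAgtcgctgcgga
Mtf1 (chr5:142346804-142347053, plus strand): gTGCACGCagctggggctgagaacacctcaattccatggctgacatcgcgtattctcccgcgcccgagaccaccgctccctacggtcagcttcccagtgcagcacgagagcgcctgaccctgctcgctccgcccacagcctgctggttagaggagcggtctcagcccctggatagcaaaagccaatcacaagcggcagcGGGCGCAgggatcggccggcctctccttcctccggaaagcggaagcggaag
The Mt1 window held 6 MRE core matches, that of Mt2A 4, that of Mt3 3, and those of Slc30a1 and Mtf1 2 each. Of 33469 promoter windows of the same length in the table, 20.6% held at least 1 match, 4.9% at least 2, 1.17% at least 3, 0.266% at least 4 and 0.0269% at least 6. The antioxidant response core TGACNNNGC, which may overlap an MRE core, matched once in the windows of Mt1, Mt2A and Slc30a1, 2 times in that of Mtf1 and nowhere in that of Mt3, against 10.1% of all windows with at least 1 match. Mt1 and Mt2A are neighbours on chromosome 19 with 4958 bases between them, and the genes Mt1 to Mt4 span 39873 bases there. The RefSeq table also lists 4 pseudogenes of Mt1 and a protein-coding Mt1f on chromosome X. Probe sequences were not compared with these, so whether reads given to Mt1 in part belong to them was not tested.

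In vehicle wells Mt1 differed between the rats. By WT it was 87.7 ± 8.46 counts per 1000000 reads (CPM; SD, n = 3 wells) in batch 1 and 392 ± 93.5 CPM (n = 6) in batch 2, with no overlap. The batch 2 mean was 4.47 times that of batch 1 by WT and 4.91 times by ST, where Mt1a was at 16.4 ± 7.32 and 80.3 ± 25.9 CPM. Slc30a1 was 1.30 times as high in batch 2 (59.5 ± 2.88 CPM against 45.7 ± 3.60 CPM), again with no overlap. Mt2A was 1.63 times as high in batch 2 by WT (30.6 ± 9.73 CPM against 18.7 ± 6.27 CPM) with wells that overlapped, and 1.66 times by ST (493.3 ± 112 CPM against 297 ± 31.7 CPM) with no overlap. Mtf1 was at 22.9 ± 2.51 CPM in batch 1 and 20.8 ± 1.03 CPM in batch 2. Each batch is 1 rat with its own library preparation, so rat and batch cannot be told apart.

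Mt1 and Mt2A rose together after the high concentrations of a few chemicals. Log2 fold changes (L2FC) against vehicle come from edgeR's quasi-likelihood F-test on both batches together, with the batch in the model, and a gene was called at a Benjamini-Hochberg adjusted p under 0.05 over all genes of the assay. Mt1 was called higher in 6 of 28 treatments and lower in 0, and Mt2A higher in 5 and lower in 1, by WT. At an unadjusted p under 0.05, Mt1 was lower in 1 treatment, WY14643 at 8 µM, and DESeq2 called it lower in 0. Over all WT genes and the 28 treatments, 15.2% of tests were called higher and 15% lower, so the number of calls does not set these genes apart.

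Caffeine at 10000 µM gave the highest Mt1 L2FC of the 28 treatments by the WT fit. In batch 1, Mt1 was at 2336, 3615 and 4562 CPM in the caffeine wells against 82.0, 83.6 and 97.4 CPM in vehicle, and in batch 2 at 4892, 5289 and 7580 CPM against a lowest vehicle well of 247, a median of 404 and a highest of 490 CPM. Every caffeine well was above every vehicle well of both rats. The L2FC was 4.78 (SE 0.40, adjusted p = 4.17e-23), or 27.4-fold, with 5.56 in batch 1 and 4.03 in batch 2 alone. Mt2A rose in the same wells by an L2FC of 4.03 (SE 0.32, adjusted p = 3.78e-24), from 11.5, 22.3 and 22.4 CPM to 308, 387 and 452 CPM in batch 1, and from 20.2 to 43.4 CPM to 263, 342 and 355 CPM in batch 2. By the difference of mean log2(CPM + 1), averaged over the batches, Mt1 ranked 20 and Mt2A 34 from the top of the 10191 genes, in a treatment that called 34.6% of all genes higher.

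Diclofenac at 400 µM, a non-steroidal anti-inflammatory drug, raised the pair to similar levels. Mt1 reached 3188, 3294 and 3630 CPM in batch 1 and 5143, 6216 and 7695 CPM in batch 2, and its L2FC was 4.48 (SE 0.39, adjusted p = 1.32e-21), or 22.3-fold. Mt2A reached 231, 243 and 334 CPM in batch 1 and 305, 325 and 397 CPM in batch 2, with an L2FC of 3.49 (SE 0.32, adjusted p = 2.27e-20). The caffeine and diclofenac wells overlapped in both batches for both genes. Mt1 ranked 5 and Mt2A 11 of 10191 genes, with 36% of all genes called higher by this treatment. The highest share of reads on metallothionein probes in any well was 0.809% by WT, in a batch 2 well of this treatment, against a median of 0.0258% over all wells.

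Ranitidine at 4000 µM, a histamine receptor blocker, separated the rats. In batch 1 Mt1 was at 1018, 1426 and 1428 CPM, and in batch 2, from a higher vehicle level, at 817, 933 and 948 CPM. All wells stood above the vehicle wells of their rat, and the L2FC was 4.03 in batch 1 and 1.28 in batch 2, with 2.96 (SE 0.38, adjusted p = 3.26e-12) over both. Mt2A was at 94.5, 135 and 136 CPM in batch 1 and at 48.9, 54.9 and 70.3 CPM in batch 2, with an L2FC of 2.88 and 1.00 in the batches and 2.07 (SE 0.32, adjusted p = 3.86e-09) over both. The differences between the batches, -2.78 for Mt1 (adjusted p = 1.28e-04) and -1.89 for Mt2A (adjusted p = 4.04e-04), passed the edgeR interaction test. With only the 3 vehicle wells of the same plate of batch 2, Mt1 kept an L2FC of 1.19 (adjusted p = 0.0113) and Mt2A had 0.66 (adjusted p = 0.0693).

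Indomethacin at 300 µM and valproic acid at 10000 µM raised both genes, and naproxen at 2000 µM raised Mt1. After indomethacin, Mt1 was at 316, 423 and 525 CPM in batch 1 and at 1033, 2002 and 3001 CPM in batch 2, an L2FC of 2.39 (SE 0.37, adjusted p = 6.88e-09), and Mt2A had an L2FC of 1.96 (adjusted p = 2.37e-08). After valproic acid, Mt1 was at 250, 307 and 311 CPM and at 884, 1109 and 1136 CPM in the batches, an L2FC of 1.22 (SE 0.36, adjusted p = 0.00198). Valproic acid was the treatment in which Mt2A, with an L2FC of 1.60 (adjusted p = 2.93e-06), had a higher value than Mt1 among the 6 that raised Mt1. After naproxen, Mt1 was at 116, 214 and 229 CPM in batch 1 and at 453, 1001 and 1145 CPM in batch 2, where the lowest well lay among the vehicle wells, and its L2FC was 1.08 (adjusted p = 0.0082), while Mt2A had 0.57 (adjusted p = 0.129) after naproxen. With each rat as 1 sample Mt1 was no longer called after valproic acid (adjusted p = 0.101) or naproxen (adjusted p = 0.19). Wells of a treatment lay above every vehicle well in both batches in 5 treatments for Mt1 and in 5 for Mt2A, which over all WT genes held for 7.46% of gene and treatment pairs. Of 27 pairs of neighbours in the order of Mt1 L2FC, 1 was apart in the same order in both batches, diclofenac at 400 µM above ranitidine at 4000 µM. In 5 pairs the wells were apart in both batches but in opposite order. Ranitidine at 4000 µM and indomethacin at 300 µM were such a pair, with ranitidine higher in batch 1 and indomethacin higher in batch 2.

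**Figure D1:**
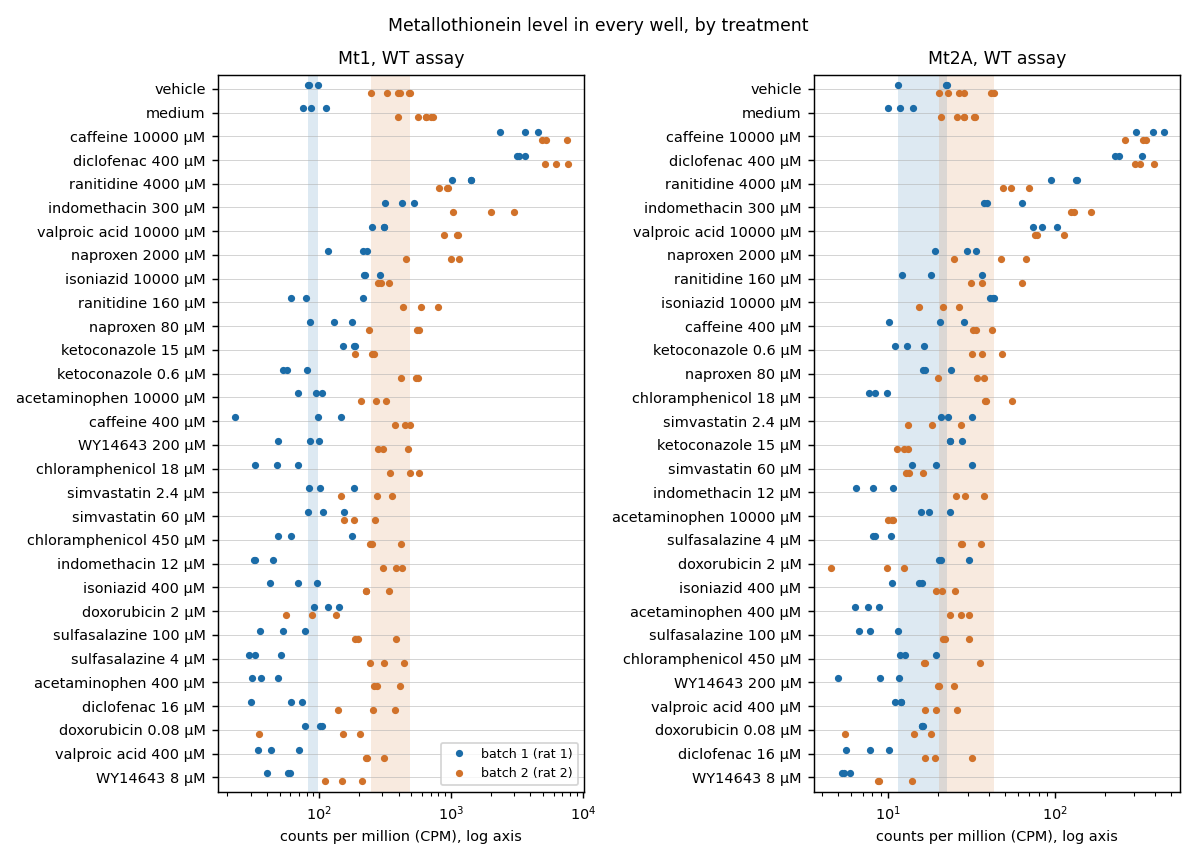
Level of Mt1 (left) and Mt2A (right) in counts per 1000000 reads on a log axis for every WT well, by treatment in order of the log2 fold change of both batches. Blue points are wells of batch 1, orange points wells of batch 2, and shaded bands run from the lowest to the highest vehicle well of each batch. Within each batch the caffeine 10000 µM and diclofenac 400 µM wells stand furthest to the right in both panels, and the batch 2 band of Mt1 lies to the right of that of batch 1.

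WY14643, an agonist of the nuclear receptor PPARα, was the chemical with a lower call of Mt2A. At 8 µM Mt2A was at 5.26, 5.44 and 5.87 CPM in batch 1 and at 8.70, 8.74 and 14.0 CPM in batch 2, below every vehicle well of the same rat. Its L2FC was -1.37 (SE 0.38, adjusted p = 0.00103) by WT and -1.45 (SE 0.37, adjusted p = 4.03e-04) by ST, with 28.2% of all WT genes called lower by this treatment. With each rat as 1 sample it was no longer called, with an adjusted p of 0.13 by WT and 0.075 by ST. Mt1 had an L2FC of -0.84 (adjusted p = 0.0559) there. At 200 µM, Mt2A had -0.54 (adjusted p = 0.186), and the difference between the concentrations was 0.83 (SE 0.41, adjusted p = 0.236). In batch 1 this chemical was on plate 5, which had no vehicle wells. With vehicle wells of the same plate of batch 2, the Mt2A L2FC was -0.999 (adjusted p = 0.00122).

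Metallothionein levels differed between the plates of batch 1. Wells of low concentrations on plate 4, the plate of the vehicle wells, had a mean Mt1 of 91.1 ± 49.5 CPM (n = 24 wells of 8 treatments), and those on plate 5 had 46.4 ± 14.5 CPM (n = 18 wells of 6 treatments). In batch 2 the corresponding means were 332 ± 175 and 357 ± 137 CPM. Plate 5 held acetaminophen, chloramphenicol, indomethacin, ketoconazole, sulfasalazine and WY14643 and no vehicle wells, so in batch 1 plate and treatment cannot be told apart for these 6 chemicals. The comparison of high with low concentrations lies within a plate.

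Between the concentrations of a chemical, Mt1 was higher at the high one in 6 of 14 chemicals and Mt2A in 5, and neither was lower in any, with 0 lower at an unadjusted p under 0.05 by edgeR, against 20.1% of all genes higher and 20.7% lower. Diclofenac gave the widest step, an Mt1 L2FC of 5.16 (SE 0.48, adjusted p = 8.27e-20) between 16 and 400 µM, or 35.7-fold, and a Mt2A L2FC of 4.25 (SE 0.39, adjusted p = 3.98e-20). At 16 µM, Mt1 was at 30.0, 60.8 and 73.7 CPM in batch 1, all below the vehicle wells, and at 139, 257 and 377 CPM in batch 2, among them, and its L2FC against vehicle was -0.68 (adjusted p = 0.794). Caffeine gave 4.72 for Mt1 and 3.88 for Mt2A, indomethacin 2.83 and 2.28, ranitidine 2.45 and 1.66, and valproic acid 1.93 and 2.20. Isoniazid gave an Mt1 L2FC of 1.13 (adjusted p = 0.0253) and a Mt2A L2FC of 0.90 (adjusted p = 0.0515). Its Mt1 wells were apart in batch 1, at 217 to 289 CPM against 42.1 to 95.7 CPM, and overlapped in batch 2, at 279 to 338 CPM against 225 to 335 CPM. For WY14643, Mt1 had an unadjusted p of 0.0464 and Mt2A one of 0.0427, with L2FC of 0.83 each.

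Doxorubicin, an intercalating anticancer drug, gave different values in the rats. At 2 µM Mt1 was at 90.9, 116 and 141 CPM in batch 1, overlapping vehicle, and at 56.2, 87.3 and 134 CPM in batch 2, below every vehicle well of that rat. The L2FC was 0.51 (adjusted p = 0.661) in batch 1 and -2.14 (adjusted p = 4.09e-06) in batch 2, and the difference of -2.64 passed the interaction test (adjusted p = 0.0026). Mt2A showed the same split, with 0.46 and -1.82 and a difference of -2.28 (adjusted p = 7.72e-04). By ST, Mt1a had -1.42 (SE 0.48, adjusted p = 0.0167) over both batches, from 0.26 in batch 1 and -2.54 in batch 2. This call was lost with each rat as 1 sample and by DESeq2. The interaction was called for Mt1 in 3 of 28 treatments, for Mt2A in 6, for Slc30a1 in 2 and for Mtf1 in 0 (1 at an unadjusted p under 0.05 by edgeR), against 2.44% of all tests.

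The assays gave the same calls for Mt2A and nearly so for Mt1, on the same lysates. Probes were matched between the assays by their numbers, and their sequences were not compared. Mt2A was called by both assays in 6 treatments and by neither in 22, and ST minus WT ranged from -0.25 to 0.69, at 4000 µM ranitidine, with a median of 0.13. For the Mt1 probe with the same number in both assays, 6 treatments were called by both and 1, doxorubicin at 2 µM, by ST alone, with differences from -0.75 at 4000 µM ranitidine to 0.48. The gene level calls by ST were 6 higher and 1 lower for Mt1a and 5 higher and 1 lower for Mt2A, against 17.1% and 17.6% of all ST tests. Levels were not comparable between probes. In vehicle wells the Mt1 probe of WT alone gave 30.9 times (batch 1) and 28.1 times (batch 2) the CPM of the Mt1 probe whose number is in both assays, and Mt2A was 15.9 and 16.1 times as high by ST as by WT. The Mt1 probes of WT called the same 6 treatments, and in the other 22 neither was called.

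**Figure D2:**
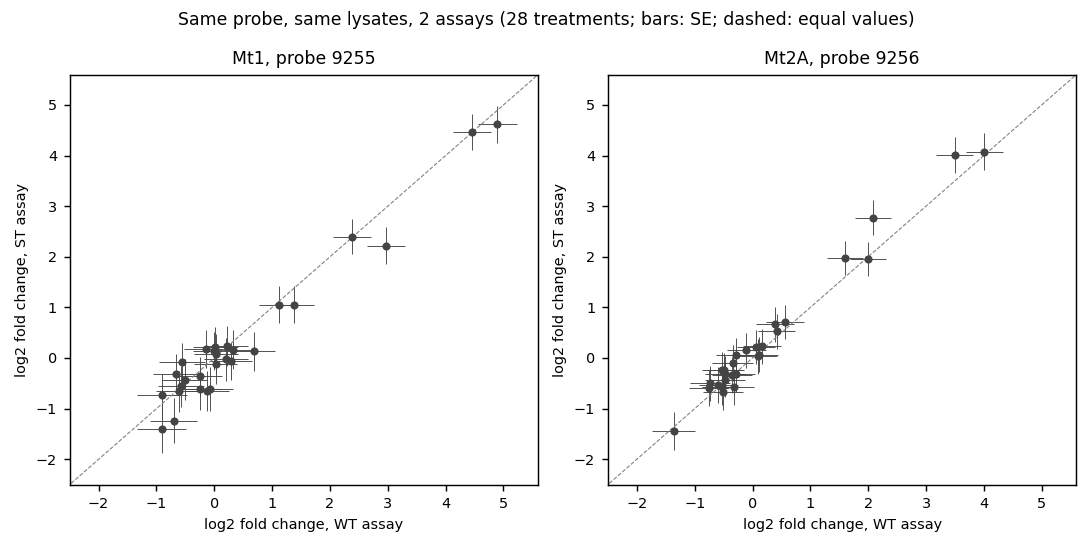
Log2 fold change against vehicle by the ST assay (vertical) and by the WT assay (horizontal) for the Mt1 probe with the same number in both assays (left) and the Mt2A probe (right), 28 treatments. Bars are standard errors and the dashed line marks equal values. Ranitidine at 4000 µM lies furthest from the line in both panels, 0.75 lower by ST for Mt1 and 0.69 higher by ST for Mt2A.

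Slc30a1 was called higher in 9 of 28 treatments and lower in 0, against 15.2% of all WT tests higher and 15% lower, with changes of at most 1.98-fold. At an unadjusted p under 0.05 edgeR and DESeq2 had it lower in 0. Diclofenac at 400 µM raised it from 43.6, 43.8 and 49.9 CPM to 87.9, 88.0 and 92.4 CPM in batch 1, and from 56.3 to 63.1 CPM to 133, 143 and 155 CPM in batch 2, with no overlap and an L2FC of 0.98 (SE 0.11, adjusted p = 3.83e-15). Acetaminophen at 10000 µM raised it to 55.3, 56.6 and 68.4 CPM and to 83.8, 89.8 and 91.0 CPM, all above the vehicle wells of the same rat, an L2FC of 0.89 (SE 0.11, adjusted p = 5.27e-13). In those wells Mt1 had an L2FC of 0.05 (SE 0.37, adjusted p = 0.902), and its wells overlapped vehicle in both batches. With total counts in place of TMM factors, which moved the median of all genes by -0.43 for this treatment, the Slc30a1 L2FC was 0.48 (adjusted p = 3.83e-06) and that of Mt1 -0.34 (adjusted p = 0.382). Caffeine at 10000 µM gave Slc30a1 an L2FC of 0.75 (adjusted p = 8.94e-10) and valproic acid at 10000 µM one of 0.49 (adjusted p = 5.09e-05).

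The other Slc30a1 calls were smaller. They were simvastatin at 60 µM with 0.42, naproxen at 2000 µM with 0.41, indomethacin at 300 µM with 0.39, and WY14643 with 0.33 at 200 µM and 0.30 at 8 µM. None of these was called with each rat as 1 sample. Simvastatin had 0.68 in batch 1 and 0.22 (adjusted p = 0.155) in batch 2, and indomethacin, which was on the plate without vehicle wells in batch 1, had 0.70 and 0.17 (adjusted p = 0.18). In fits of single batches WY14643 gave 0.68 at both concentrations in batch 1, against -0.0006 at 200 µM and -0.08 at 8 µM in batch 2, and the difference at 8 µM passed the interaction test (-0.72, adjusted p = 0.0185). With CPM scaled to total counts alone, the values were 0.09 and 0.01 and were not called. After ranitidine at 4000 µM, which raised Mt1 7.77-fold, Slc30a1 was at 45.1, 46.7 and 50.9 CPM in batch 1, overlapping vehicle (43.6 to 49.9 CPM). In batch 2 it was at 49.2, 52.6 and 55.4 CPM, below every vehicle well (56.3 to 63.1 CPM). Over both batches it had an L2FC of 0.01 (SE 0.11, adjusted p = 0.964). Medium alone gave 0.27 (adjusted p = 0.0629), and in batch 2 its 6 wells, from 64.5 to 75.5 CPM, were above all vehicle wells (L2FC 0.32, adjusted p = 0.00737). Medium called 12.6% of all genes. In the edgeR fit of single WT probes, medium gave the Mt1 probes 0.60 (adjusted p = 0.239) and 0.64 (adjusted p = 0.178). Mt2A had -0.17 (adjusted p = 0.769) and Mtf1 -0.07 (adjusted p = 0.697). Mt1 in medium overlapped vehicle in batch 1 and on plate 2 of batch 2. On plate 3 of batch 2 its wells, at 646 to 735 CPM, were above all vehicle wells, at most 490 CPM. By ST, Mt2A in medium of batch 1, at 176 to 216 CPM, was below the vehicle wells at 261 to 322 CPM.

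**Figure D3:**
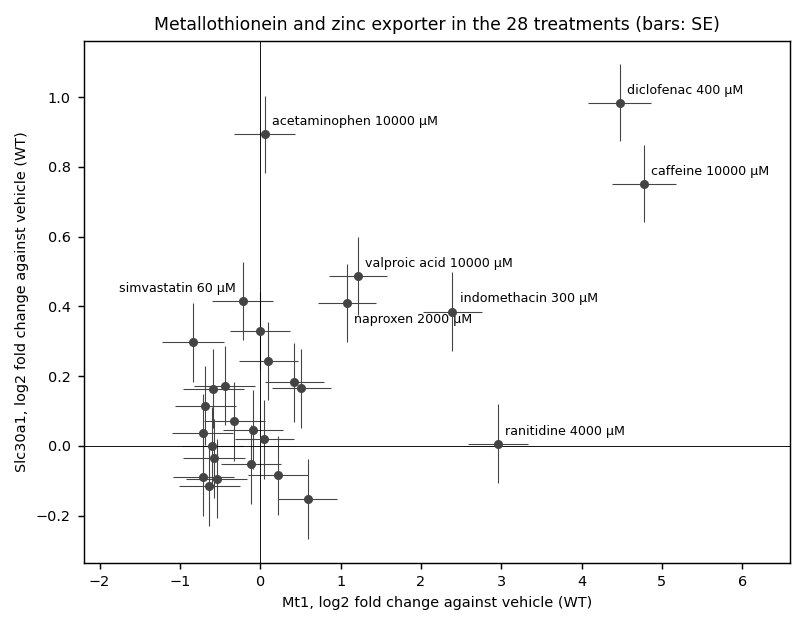
Log2 fold change against vehicle of Slc30a1 (vertical) and Mt1 (horizontal) by WT in the 28 treatments, with standard errors as bars. Diclofenac 400 µM and caffeine 10000 µM were high on both axes, acetaminophen 10000 µM was high for Slc30a1 at an Mt1 value of 0.05, and ranitidine 4000 µM was high for Mt1 at a Slc30a1 value of 0.01.

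Between concentrations, Slc30a1 was higher at the high one for acetaminophen (1.01), diclofenac (0.87), caffeine (0.73), simvastatin (0.47) and valproic acid (0.45), and lower for ketoconazole (-0.33, adjusted p = 0.0242). All 28 treatments share the vehicle wells of their batch, and this comparison does not use them. Acetaminophen raised Slc30a1 2.01-fold, while Mt1 had 0.69 (adjusted p = 0.122) and Mt2A 0.17 (adjusted p = 0.707) between the same wells. The order of chemicals for Slc30a1 depended on the scaling, since with total counts acetaminophen had 0.62, below diclofenac with 1.02 and valproic acid with 0.75.

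The Mtf1 changes were small. It was called higher in 3 treatments and lower in 8 of 28, against 15.2% and 15% of all WT tests, and its L2FC ranged from -0.86 to 0.53. Of the lower calls, that of indomethacin at 12 µM was lost in 13 of 22 alternatives, that of naproxen at 80 µM in 9 and that of simvastatin at 60 µM in 6. Ranitidine at 4000 µM gave the highest value, with wells at 24.1, 28.9 and 33.4 CPM in batch 1 and 25.5, 29.1 and 35.5 CPM in batch 2 against vehicle wells of 20.9 to 25.7 and 20.1 to 22.8 CPM, an overlap in batch 1 only (L2FC 0.53, SE 0.10, adjusted p = 2.54e-06). Diclofenac at 400 µM gave 0.26 (adjusted p = 0.0205). Acetaminophen at 10000 µM gave 0.24 (adjusted p = 0.0298), although its wells were at 17.1 to 19.0 CPM and 19.1 to 21.4 CPM, below vehicle in batch 1 and overlapping it in batch 2. With total counts in place of TMM factors that value turned to -0.17 (adjusted p = 0.139), and valproic acid at 10000 µM went from 0.15 (adjusted p = 0.189) to 0.43 (adjusted p = 1.88e-04). Total counts moved the median of all genes by -0.43 for acetaminophen at 10000 µM and by 0.27 for valproic acid at 10000 µM, so the Mtf1 call in these treatments depends on the scaling.

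WY14643 at 8 µM gave the lowest Mtf1 level of the 28 treatments. The wells were at 7.82, 9.79 and 10.9 CPM in batch 1 and at 8.15, 10.1 and 12.1 CPM in batch 2, all below every vehicle well (L2FC -0.86, SE 0.11, adjusted p = 4.51e-11), with -0.91 against vehicle of the same plate in batch 2 (adjusted p = 2.08e-04). At 200 µM the L2FC was -0.48 (adjusted p = 8.90e-05), and the step of 0.38 between the concentrations had an adjusted p of 0.0494. The other lower calls ranged from -0.49 for sulfasalazine at 100 µM to -0.32 for caffeine at 10000 µM. Caffeine lowered Mtf1 in the wells where Mt1 was highest by L2FC. Between concentrations, Mtf1 was higher at the high one for ranitidine (0.61), valproic acid (0.52) and WY14643, and lower for simvastatin (-0.40, adjusted p = 0.00545).

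**Figure D4:**
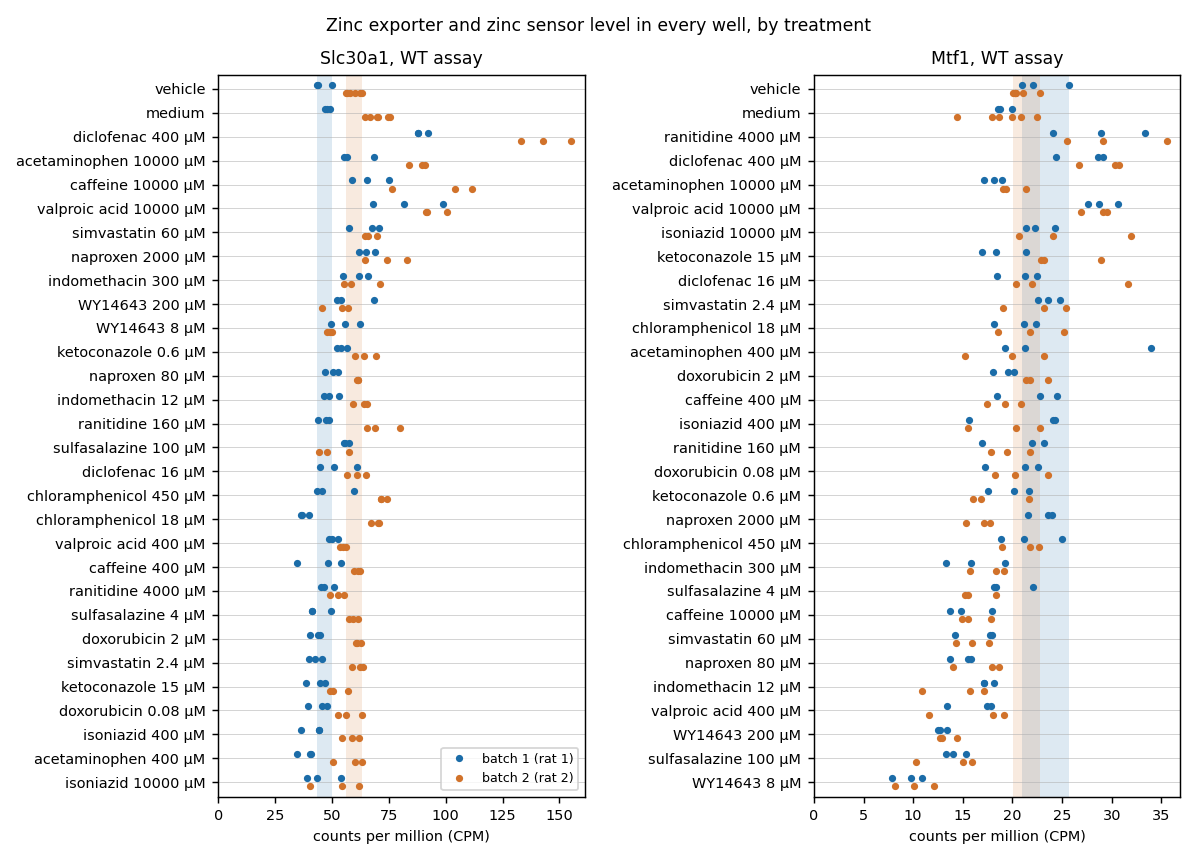
Level of Slc30a1 (left) and Mtf1 (right) in counts per 1000000 reads on a linear axis from 0 for every WT well, by treatment in order of log2 fold change. Blue points are wells of batch 1, orange points wells of batch 2, and bands span the vehicle wells of each batch. Diclofenac 400 µM wells of Slc30a1 reach 87.9 to 155 CPM, and WY14643 8 µM wells of Mtf1 lie at 7.82 to 12.1 CPM.

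Mt3 was read 94 times in all, in 43 WT wells. Valproic acid at 10000 µM held 41 of these reads, with 3, 5 and 5 reads in the wells of batch 1 and 5, 10 and 13 in those of batch 2. Vehicle had 2 reads in 9 wells, and valproic acid at 400 µM had 0 in 6. At equal depth, the ratio to vehicle was 31.1 (95% exact interval 8.07 to 265, for counting error only). No other treatment had reads in all 6 wells, and the other 180 wells held 53 reads with at most 5 in a well. In an edgeR fit without the filter on low counts, Mt3 had an L2FC of 4.04 (SE 0.77, adjusted p = 3.25e-06) after valproic acid, 2.35 (adjusted p = 0.018) after acetaminophen at 10000 µM and 2.13 (adjusted p = 0.04) after caffeine at 10000 µM, the last 2 on 8 reads each. Slc30a3, known for loading zinc into synaptic vesicles of neurons, passed the filter of 10 counts only through the valproic acid 10000 µM wells, with a mean of 10.9 reads over all wells and 9.22 over the other 180, so its level there is given with no test. These wells were at 4.03 to 6.48 CPM in batch 1 and 11.8 to 14.3 CPM in batch 2, against vehicle wells of 0.121 to 0.546 and 1.67 to 3.40 CPM.

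**Figure D5:**
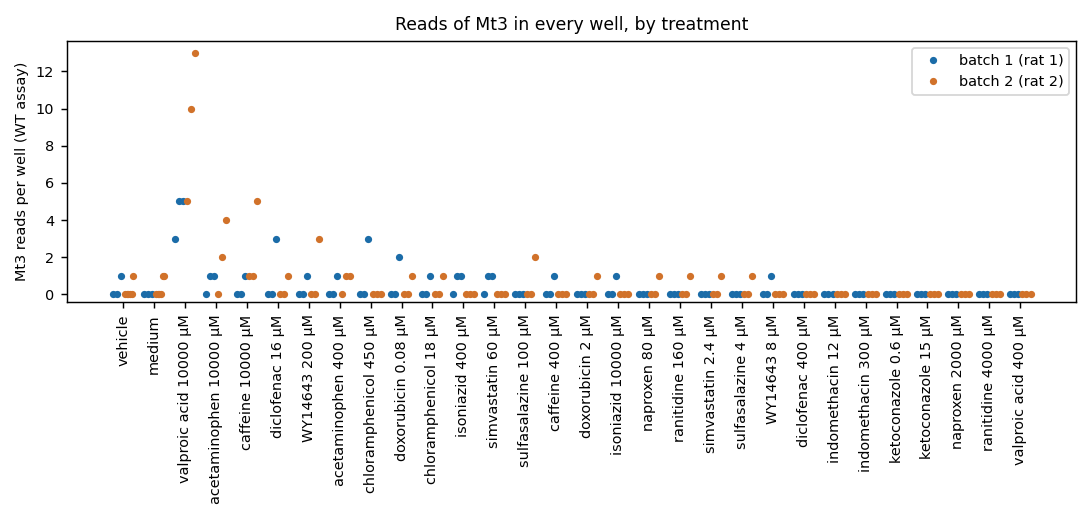
Reads of Mt3 in every WT well, by treatment in falling order of their sum after vehicle and medium. Blue points are wells of batch 1 and orange points wells of batch 2. The 6 valproic acid 10000 µM wells lie at 3 to 13 reads, and no other well has more than 5.

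Counted with each rat as 1 sample, by adding its wells, Mt1 was called higher in 4 treatments (caffeine, diclofenac, ranitidine and indomethacin at their high concentrations) and Mt2A in 5. For Mt1 the L2FC was then 4.84 (SE 0.78, adjusted p = 2.65e-06) with caffeine and 4.58 (SE 0.77, adjusted p = 3.91e-06) with diclofenac. Slc30a1 was called higher in 4 (diclofenac, acetaminophen, caffeine and valproic acid), and Mtf1 higher in 1 and lower in 5. Over all WT genes and the 28 treatments, this fit called 10.3% of tests higher and 10.1% lower.

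Other zinc transporters were called in both directions at shares near those of all genes. Of 9 listed Slc30 exporters besides Slc30a1, 7 were tested by WT, Slc30a3 among them. Of their 196 gene and treatment pairs 27 (13.8%) were called higher and 32 (16.3%) lower, against 15.2% and 15% over all WT genes. These counts hold Slc30a3, which passed the filter only through the valproic acid 10000 µM wells, and were not made without it. Its higher calls were valproic acid at 10000 µM and ranitidine at 4000 µM. Its lower ones were diclofenac at 400 µM, chloramphenicol at 450 µM and sulfasalazine at 100 µM. Of 14 listed Slc39 importers, 9 were tested, with 29 of 252 pairs (11.5%) higher and 45 (17.9%) lower. Among exporters, Slc30a10, which carries manganese out of cells, fell after ranitidine at 4000 µM from 23.2 to 25.0 CPM to 2.55 to 2.68 CPM in batch 1 and from 19.3 to 29.7 CPM to 1.37 to 3.12 CPM in batch 2 (L2FC -3.19, adjusted p = 5.33e-35). It also fell after acetaminophen at 10000 µM (-2.99), diclofenac at 400 µM (-2.93) and ketoconazole at 15 µM (-2.22), and rose after WY14643 (1.63 at 8 µM and 1.73 at 200 µM), valproic acid at 400 µM (1.54) and sulfasalazine at 100 µM (1.27). After acetaminophen at 10000 µM, Slc30a9 (1.11) and Slc30a4 (0.91) rose and Slc30a6 (-1.10) fell. Slc30a4 also rose after ranitidine at 4000 µM (0.84), diclofenac at 400 µM (0.78) and valproic acid at 10000 µM (0.75). It fell after WY14643 at 8 µM (-0.22). Slc30a9 also rose after diclofenac at 400 µM (0.50) and valproic acid at 10000 µM (0.49), and fell after ranitidine at 4000 µM (-0.37). Among importers, caffeine at 10000 µM, with the highest Mt1 L2FC, was followed by 1 higher and 8 lower of 9, with a median L2FC of -0.70 against 0.05 over all genes, of which it called 34.6% higher and 31.6% lower. Diclofenac at 400 µM had 4 higher and 5 lower, against 36% and 35.8% of all genes. Slc39a14 is an importer of zinc, iron and manganese that is abundant in liver. It fell after acetaminophen at 10000 µM (-2.18, adjusted p = 9.85e-47), as did Slc39a1 (-1.58) and Slc39a11 (-1.49). Slc39a14 also fell after caffeine at 10000 µM (-1.53), diclofenac at 400 µM (-1.42), ranitidine at 4000 µM (-1.27) and naproxen at 2000 µM (-0.96). Smaller falls followed WY14643 at 8 µM (-0.77) and valproic acid at 10000 µM (-0.59), with 0.15 (adjusted p = 0.159) after indomethacin at 300 µM. Slc39a1 also fell after valproic acid at 10000 µM (-0.97), diclofenac at 400 µM (-0.85) and caffeine at 10000 µM (-0.345). It rose after WY14643 at 8 µM (0.57). Slc39a11 rose after valproic acid at 10000 µM (0.95), diclofenac at 400 µM (0.94), ranitidine at 4000 µM (0.74) and naproxen at 2000 µM (0.62). It fell after caffeine at 10000 µM (-0.70). Slc39a10 fell after valproic acid at 10000 µM (-1.99), caffeine at 10000 µM (-1.84), ranitidine at 4000 µM (-1.30) and diclofenac at 400 µM (-1.26). It rose after acetaminophen at 10000 µM (1.52) and WY14643 at 8 µM (1.24). Slc39a4 fell after diclofenac at 400 µM (-1.52), caffeine at 10000 µM (-0.89), ranitidine at 4000 µM (-0.68) and WY14643 at 8 µM (-0.38).

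Of 13 listed genes of copper and other metal handling, 12 were tested and 63 of 336 pairs (18.8%) were higher and 69 (20.5%) lower, against 15.2% and 15% over all WT genes. Ceruloplasmin (Cp), the copper protein of plasma, fell after diclofenac at 400 µM by 2.52 on the log2 scale, and the copper chaperone Atox1 by 1.98. Cp also fell after valproic acid at 10000 µM (-2.28), ranitidine at 4000 µM (-1.69) and caffeine at 10000 µM (-0.61). It rose after naproxen at 2000 µM (0.805) and indomethacin at 300 µM (0.41). Atox1 also fell after caffeine at 10000 µM (-1.31), ranitidine at 4000 µM (-0.65), naproxen at 2000 µM (-0.62) and indomethacin at 300 µM (-0.59). The iron exporter Slc40a1 fell after acetaminophen at 10000 µM by 2.69 and the chaperone Ccs by 1.49. Slc40a1 also fell after diclofenac at 400 µM (-1.73), valproic acid at 10000 µM (-1.60), ranitidine at 4000 µM (-1.58) and caffeine at 10000 µM (-1.24). Ccs also fell after caffeine at 10000 µM (-0.82) and naproxen at 2000 µM (-0.64), and rose after valproic acid at 10000 µM (0.37). Atp7b, the copper pump of hepatocytes, had no read in the 3 acetaminophen wells of batch 1, against 1.94 to 2.55 CPM in vehicle, and 0.113 to 0.573 CPM against 1.48 to 2.35 CPM in batch 2. Atp7b also fell after diclofenac at 400 µM (-1.33), and it rose after caffeine at 10000 µM (1.10) and WY14643 at 8 µM (0.75).

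Of 14 listed genes besides metallothioneins that zinc or cadmium are known to raise, 12 were tested and 57 of 336 pairs (17%) were higher and 52 (15.5%) lower, near the 15.2% and 15% over all WT genes. Acetaminophen at 10000 µM, in which Slc30a1 rose and Mt1 was at an L2FC of 0.05, had 9 higher and 1 lower, with a median of 1.89 against -0.02 over all genes, of which 38.8% were called higher and 40.1% lower. The heat shock gene Hspa1a rose there by an L2FC of 4.79, thioredoxin reductase Txnrd1 by 3.31 and Fos by 3.05. Hspa1a also rose after valproic acid at 10000 µM (2.03), caffeine at 10000 µM (1.56) and diclofenac at 400 µM (1.38). Fos also rose after diclofenac at 400 µM (2.44) and valproic acid at 10000 µM (1.59). It fell after indomethacin at 300 µM (-1.29) and ranitidine at 4000 µM (-0.84). Txnrd1 also rose after valproic acid at 10000 µM (0.85), indomethacin at 300 µM (0.74) and diclofenac at 400 µM (0.57). Caffeine at 10000 µM, which called 34.6% of all genes higher and 31.6% lower, had 3 higher and 5 lower with a median of -0.19, and ranitidine at 4000 µM, which called 32.3% of all genes higher and 33.9% lower, had 3 higher and 6 lower with a median of -0.51, among them the early growth response gene Egr1 (-3.17). After indomethacin at 300 µM, with 6 higher and 4 lower against 27.1% and 27.6% of all genes, the endoplasmic reticulum chaperone Hspa5 rose by 2.74. These lists hold genes with other known inducers.

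Among the 11 tested of 16 listed symbols of glucocorticoid responsive genes, 9 were higher and 1 lower after caffeine at 10000 µM. Their median L2FC was 2.32 against 0.05 over all genes, of which 34.6% were called higher and 31.6% lower. This list too holds genes with other known inducers. After ranitidine at 4000 µM, 2 were higher and 6 lower with a median of -0.78, and after diclofenac at 400 µM 6 were higher and 5 lower with a median of 0.30. Of all genes, ranitidine called 32.3% higher and 33.9% lower, and diclofenac 36% and 35.8%. Over the 28 treatments, 78 of 308 pairs (25.3%) were higher and 52 (16.9%) lower, against 15.2% and 15% over all WT genes. Of 13 acute phase genes, 6 were higher and 4 lower after caffeine, and 1 was higher and 11 lower after diclofenac, with a median of -1.62. Over all treatments 79 of 364 acute phase pairs (21.7%) were higher and 80 (22.0%) lower.

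Over the 60 means of a treatment in a batch, centred within batch on log2(CPM + 1), the gene most like Mt1 was Mt2A (Pearson's r = 0.969), followed by LOC100912247 (0.844), Yif1b (0.828), Gas5 (0.818) and Ip6k1 (0.817) of 10190 genes compared. The genes most like Slc30a1 were Gbf1 (0.804), Syvn1 (0.801), Lysmd3 (0.799), Dusp28 (0.793) and Yipf3 (0.790). Mt1 and Slc30a1 had r = 0.617, which put Slc30a1 at rank 343 among the genes compared with Mt1. Mtf1 had r = 0.258 with Mt1 and 0.171 with Slc30a1, the latter with -0.043 in batch 1 and 0.357 in batch 2. These values describe means that share libraries, depth and vehicle wells.

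The label of the cells was checked by its markers. The 9 hepatocyte markers in the WT table summed to 37068 to 44264 CPM in vehicle wells, and albumin (Alb) was between 3225 and 16131 CPM over all wells. The hepatocyte sum does not show the level of each marker in it. Endothelial markers summed to 1.67 to 3.81 CPM in vehicle, with 5 of 6 under 1 CPM. Cholangiocyte markers summed to 33.1 to 49.0 CPM with Krt7, Krt19 and Cftr under 1, so Epcam and Sox9 carried that sum. Kupffer and leukocyte markers summed to 29.1 to 49.3 CPM with Marco and Ptprc under 1, so the other markers of that list carried it. Stellate cell and fibroblast markers summed to 35.0 to 168 CPM with Col1a1, Acta2, Des and Pdgfrb of the 6 under 1. Col1a2 and Col3a1 carried that sum. Some markers of other cell types were thus read in vehicle wells, and the share of such cells was not tested. In all 6 treatments that raised Mt1 the summed hepatocyte list lay below its vehicle range, as it did after acetaminophen at 10000 µM (23250 to 36374 CPM), where Mt1 was not called. It came to 6950 to 9407 CPM after diclofenac at 400 µM, to 11888 to 17649 CPM after ranitidine at 4000 µM, to 15664 to 22142 CPM after valproic acid at 10000 µM and to 16270 to 22749 CPM after caffeine at 10000 µM. The Kupffer and leukocyte list was at 30.0 to 31.6 CPM in batch 1 and 20.5 to 22.4 CPM in batch 2 after diclofenac. After caffeine it was at 10.1 to 12.9 and 5.64 to 14.2 CPM, and vehicle had 41.3 to 49.3 and 29.1 to 39.1 CPM. Both treatments lay below every vehicle well of their batch. The stellate cell list after caffeine did so too, at 26.9 to 36.4 and 6.87 to 8.63 CPM against 109 to 168 and 35.0 to 50.8 CPM. After diclofenac it overlapped vehicle, at 92.2 to 115 and 27.3 to 36.0 CPM. The cholangiocyte list lay above every vehicle well of its batch after valproic acid at 10000 µM, at 51.0 to 64.7 CPM against 33.1 to 39.1 CPM in batch 1 and at 49.6 to 74.2 CPM against 39.2 to 49.0 CPM in batch 2, and after ranitidine at 4000 µM in batch 1 (40.2 to 56.8 CPM) but not in batch 2 (19.7 to 25.3 CPM). Fewer cells of a type and less RNA per cell cannot be told apart in these lysates, and the part of these shifts in the metallothionein values was not tested. After WY14643 at 8 µM the hepatocyte list was at 37849 to 38219 CPM in batch 1, within the vehicle range of 37068 to 40385 CPM. In batch 2 it was at 37322 to 39355 CPM, below every vehicle well (39975 to 44264 CPM).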

How the data were processed

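TempO-Seq, in which a pair of detector oligos is ligated on its transcript and sequenced, was run on lysates of 186 wells by the ST (2654 probes) and WT (22253 probes) assays. Counts of reads per probe and well were deposited by the authors, aligned to rn6 with STAR 2.5.3a per the submitters' processing notes, and were not normalized. Probes that share a gene symbol, ignoring case, were summed. No pair of wells held identical counts.

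Genes whose mean reached 10 counts were fitted by edgeR 4.0.16 (quasi-likelihood, R 4.3.3) with TMM factors and batch in the model, which serves as the replicate block because treated and vehicle wells of a batch come from the same rat. P-values were adjusted by Benjamini-Hochberg over all genes of a contrast. In the fit of both batches they measure the spread between wells together with differences of a treatment effect between the rats. The 2 rats are the only independent samples. The same fit gave high against low concentration, and a fit with one mean per treatment and batch gave the interaction. CPM were counts per 1000000 reads of all probes of the well. An Mt3 ratio has an exact 95% interval for counting error only.

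Members and lists were chosen with earlier results of these data known. All members were named. From each list about metals, up to 5 genes were named that had the largest absolute L2FC in any treatment with an adjusted p under 0.05 and the same sign in both batches. Likeness named the 5 genes with the highest r. The alternatives were RLE size factors, DESeq2 1.42.0, no filter, no replicate block, single batches, vehicle wells of the same plate, wells added per rat, probes singly, an absolute L2FC of at least 1, and each replicate left out. Scaling by total counts was added after seeing the data. The fitting code was tested on simulated data. Probe sequences and a genome of the build rn6 were not used here.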

Additional observations from a re-analysis of the deposited data

Results flagged for a closer look

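The log2 fold change against vehicle differed between the rats in 11 pairs of a member and a treatment by the edgeR interaction test, given as batch 2 minus batch 1. For Mt1 these were ranitidine at 4000 µM (-2.78, adjusted p = 1.28e-04), doxorubicin at 2 µM (-2.64, adjusted p = 0.0026) and doxorubicin at 0.08 µM (-1.85, adjusted p = 0.0429). For Mt2A they were doxorubicin at 2 µM (-2.28, adjusted p = 7.72e-04), ranitidine at 4000 µM (-1.89, adjusted p = 4.04e-04), isoniazid at 10000 µM (-1.80, adjusted p = 0.0102), ketoconazole at 15 µM (-1.78, adjusted p = 0.00634), acetaminophen at 10000 µM (-1.59, adjusted p = 0.0148) and chloramphenicol at 18 µM (1.65, adjusted p = 0.0381). For Slc30a1 they were WY14643 at 8 µM (-0.72, adjusted p = 0.0185) and sulfasalazine at 100 µM (-0.66, adjusted p = 0.0288). In batch 1, acetaminophen, ketoconazole, chloramphenicol, sulfasalazine and WY14643 were on the plate without vehicle wells. Doxorubicin, ranitidine and isoniazid were on the plate of the vehicle wells in batch 1, and in batch 2 both plates held vehicle wells.

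In 12 groups of vehicle or medium wells of batch 2, Mt3 left out, 2 wells stood far from the others by Dixon's ratio of gap to range. The rule marks about 1 in 20 groups by chance. The groups are readings of the same lysates and not independent, so no excess over chance can be drawn from them. They were a medium well with Mt1a at 127 CPM by ST, against 42.3 to 71.1 CPM in the others, and a vehicle well with Mtf1 at 22.8 CPM by WT, against 20.1 to 21.1 CPM. A vehicle well with Mt3 at 0.150 CPM by WT held 1 read where the others held 0, which sets it apart by construction and says nothing about that well.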

How the results depend on the processing

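The caffeine, diclofenac, ranitidine and indomethacin calls of Mt1 by WT kept their direction and stayed past the threshold in all 22 alternatives, with an L2FC of 3.94 to 5.56, 3.80 to 5.21, 1.19 to 4.03 and 2.07 to 2.58. Over pairs of a called L2FC and an alternative, 906 kept the direction and the call, 78 lost the call and 6 changed sign, and of the counts of calls 303 stayed within 1.5 times and 49 did not.

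Without the replicate block, that is without batch in the fit, Mt1a by ST was called higher in 3 treatments and lower in 0, and Slc30a1 was lower between concentrations in 0 chemicals. Other counts of calls against vehicle stayed within 1.5 times without the block.

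Total counts in place of TMM, chosen after seeing the data, gave 1 lower call of Mt1 and 3 of Mt2A by WT, 2 of Mt1a and 3 of Mt2A by ST, 5 batch differences of Mt1, and 5 higher and 3 lower for Mtf1 between concentrations (2 lower with RLE). Mtf1 after acetaminophen at 10000 µM reversed to -0.17. With wells added per rat, Mtf1 was higher in 1 and lower in 5, Slc30a1 higher in 4 and lower between concentrations in 0, and Mt2A by both assays and Mt1a were lower in 0. DESeq2 called Mt1a lower in 0. With batch 1 alone Mt1a was lower in 0 (doxorubicin at 2 µM reversed to 0.26), Mt2A by ST lower in 3, and Mtf1 higher in 1 and lower in 4. With batch 2 alone lower calls were 2 for Mt1a, 6 for Mt2A by ST, 3 for Mt1, 6 for Mt2A by WT and 3 for Mtf1, and Slc30a1 was higher in 5. With vehicle of the same plate of batch 2 these were 2, 6, 3, 7 and 3, with 5 for Slc30a1 and 1 higher call of Mtf1. Slc30a1 after WY14643 reversed there, to -0.0006 and -0.0147 at 200 µM and to -0.0794 and -0.10 at 8 µM. An absolute L2FC of at least 1 left 0 calls of Mtf1 and Slc30a1. The cause was not tested for any of these.

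With 1 replicate left out at a time, higher calls ranged from 5 to 6 for Mt1, Mt1a and Mt2A by ST, from 1 (without replicate 3) to 3 for Mtf1 and from 8 to 9 for Slc30a1. Lower calls ranged from 0 to 1 for Mt1 (1 without vehicle replicate 3 of batch 1 or replicate 1 of batch 2), from 0 (without replicate 1) to 1 for Mt1a, from 4 (without replicate 1) to 8 for Mtf1, and from 0 to 1 (without replicate 3) for Slc30a1. Batch differences ranged from 2 to 6 for Mt1 (6 without vehicle replicate 1 of batch 2), from 3 to 6 for Mt2A (3 without vehicle replicate 1 of batch 1) and from 0 to 3 for Slc30a1 (0 without vehicle replicate 1 or 3 of batch 1). Depth limits Mt3, at 1 read in most wells that have any.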
